A study of Mus musculus with 20 samples.

Results

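The Toll-like receptors and their shared coreceptor CD14 were followed across murine bone marrow-derived dendritic cells (BMDC) given a bromodomain inhibitor and an IgG immune complex. The set was chosen by gene symbol from the count table and held 10 genes, the 9 receptor genes Tlr1, Tlr2, Tlr3, Tlr4, Tlr6, Tlr7, Tlr8, Tlr9 and Tlr13 together with Cd14. All 10 were among the 24421 genes of the table, and all 10 were among the 12465 genes with enough reads to be tested. RNA was sequenced from 20 libraries, 5 in each of 4 groups, and bone marrow of each of 5 mice, A to E, gave 1 library to every group. Marrow cells were grown for 8 days in 40 ng/mL GM-CSF, and the cells then received solvent or 3.3 µM I-BET151, here iBET, with free ovalbumin (Ova) or ovalbumin bound by rabbit anti-ovalbumin IgG (IC) for 4 hours. The groups are written DMSO Ova and DMSO IC for solvent and IBET Ova and IBET IC for the inhibitor, and DMSO Ova had neither the inhibitor nor antibody. The labels give 5% DMSO for the solvent arm and no genotype, strain, sex or age for the mice, and they do not say how much DMSO the iBET arm held. They place inhibitor and stimulus at the same moment, whereas the methods place the inhibitor first. The methods also name 5% DMSO only for the preparation given to live mice. For cultures they describe a stock in DMSO that was diluted, without a final DMSO percentage.

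Toll-like receptors are membrane proteins that bind molecular patterns of microbes and damaged cells. TLR1, TLR2, TLR4 and TLR6 work at the cell surface, where TLR2 pairs with TLR1 or TLR6 to bind lipopeptides and TLR4 with MD-2 (Ly96) binds lipopolysaccharide that CD14 hands over. TLR3, TLR7, TLR8, TLR9 and TLR13 sit in endosomes and bind nucleic acids, and they leave the endoplasmic reticulum with the chaperone UNC93B1. Most signal through the adaptor MyD88, TLR3 signals through TRIF (Ticam1), and TLR4 uses both. BET proteins read acetylated histones, and I-BET151 occupies the bromodomains with which they do so.

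In the GRCm38 annotation Tlr1 (chr5:64924679-64933563) and Tlr6 (chr5:64952031-64960097) were neighbours on the minus strand, as were Tlr8 (chrX:167242696-167264329) and Tlr7 (chrX:167304929-167330558). Tlr2 lay at chr3:83836272-83841767 and Tlr3 at chr8:45395665-45411080, both on the minus strand. Tlr4 (chr4:66827584-66930284), Tlr9 (chr9:106222598-106226883) and Tlr13 (chrX:106143204-106160493) were read from the plus strand. Tlr1 and Tlr6 shared 340 stretches of 75 bases in their transcripts, 10.3% of those of Tlr1 and 9.25% of those of Tlr6, so that the split of reads between them is uncertain. Tlr3 overlapped an annotated antisense gene, Gm45542, and whether strand was used in counting is not given in the sources used here.

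RefSeq promoter windows of GRCm38.p6 were held for 7 of the 10 genes (Tlr1, Tlr2, Tlr3, Tlr6, Tlr8, Tlr9 and Tlr13). The 250 bases before the most upstream start of each were searched on both strands for 5 short motifs. The core of the PU.1 site, GAGGAA, occurred in 4 of the 7 windows and in 23.3% of all 32851 windows in the table. PU.1 is an ETS factor of the myeloid lineage. The 4 windows that hold the match are shown, as far as they lie outside the annotated gene, with the match in capitals and the gene's own strand read 5′ to 3′. They span chr5:64933564-64933808 on the minus strand for Tlr1, chrX:167264330-167264579 on the minus strand for Tlr8, chr9:106222348-106222597 on the plus strand for Tlr9 and chrX:106143025-106143203 on the plus strand for Tlr13.
Tlr1: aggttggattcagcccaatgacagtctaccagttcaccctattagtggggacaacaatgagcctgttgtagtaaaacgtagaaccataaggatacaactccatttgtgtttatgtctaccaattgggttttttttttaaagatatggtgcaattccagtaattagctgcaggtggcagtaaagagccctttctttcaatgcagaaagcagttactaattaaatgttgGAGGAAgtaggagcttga
Tlr8: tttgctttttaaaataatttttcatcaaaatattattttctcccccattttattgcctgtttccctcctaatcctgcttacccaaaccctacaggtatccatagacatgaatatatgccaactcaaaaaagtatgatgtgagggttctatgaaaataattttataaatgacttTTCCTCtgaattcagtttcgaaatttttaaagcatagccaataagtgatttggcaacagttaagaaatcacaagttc
Tlr9: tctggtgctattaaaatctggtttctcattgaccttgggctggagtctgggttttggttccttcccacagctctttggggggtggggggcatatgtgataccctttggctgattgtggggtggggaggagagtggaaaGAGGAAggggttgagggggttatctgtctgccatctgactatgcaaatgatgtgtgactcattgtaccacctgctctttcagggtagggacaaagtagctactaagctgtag
Tlr13: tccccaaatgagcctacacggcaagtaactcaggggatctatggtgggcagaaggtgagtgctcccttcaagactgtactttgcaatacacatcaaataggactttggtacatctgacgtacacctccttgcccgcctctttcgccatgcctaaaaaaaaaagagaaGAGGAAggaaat

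The match lay on the gene's strand in Tlr1, Tlr9 and Tlr13, at bases 228, 139 and 168 of the run, and on the other strand in Tlr8, at base 174. It overlapped no match of the other 4 motifs. An AP-1 match, TGANTCA, was found in the window of Tlr9 alone, against 6.75% of all windows. The windows of Tlr2 and Tlr3 matched a simplified kappa B pattern, against 17.6%. That pattern is not the NF-kappa B consensus, which was not searched for. The TATA letters TATAAA occurred in the windows of Tlr6 and Tlr8, against 12.4%, and the interferon-stimulated response element in none of the 7, against 2.98%. The window of a second start of Tlr6, outside these 7, held 2 matches of that element. The shares over all windows count every start of a gene. GC content ran from 31.2% (Tlr8) to 62.8% (Tlr2) around a median over all windows of 52.4%. The CpG count was 0 in Tlr9, 1 in Tlr1 and Tlr8 and 11 in Tlr2, beside a median of 6 over all windows.

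Total counts were between 16447491 and 29245150 per library. Libraries of 1 group differed by more than counting error in all 40 pairs (lowest chi-square per degree of freedom 12.5), so none was a copy of another. On the second principal component, which held 14.9% of the variance, mice A and B lay apart from mice C, D and E in every group. No batch is named behind this in the sources used here, so values within each set of mice are given beside those results that differ between them. Of 6 markers of GM-CSF dendritic cells, Itgax (1962 ± 187 CPM), Cd74 (2661 ± 735 CPM), H2-Ab1 (289 ± 78 CPM) and Zbtb46 (24.5 ± 11.1 CPM) were present in DMSO Ova (SD, n = 5; CPM, counts scaled by library size), while Flt3 was low (3.03 ± 1.76 CPM) and Cd209a near 0 (0.281 ± 0.185 CPM, not tested). Flt3 was the 1 of the 5 tested that passed as lower with iBET, at 0.242 ± 0.113 CPM in IBET Ova (log2 -3.66 ± 0.54, and -2.91 ± 0.51 with IC). With the mouse as a block 2 passed as lower and 1 as higher with Ova, beside 35.2% and 33.5% of all genes, and 2 and 2 with IC, beside 35.4% and 32.6%. Markers of other lineages were low. Siglech of plasmacytoid dendritic cells was at 0 in every library, and the 6 markers of that cell summed to 13.7 to 42.6 CPM, with 2 of 3 tested lower under iBET. Neutrophil markers summed to 7.96 to 21.6 CPM, and 1 of 3 tested, Mpo, passed as higher under iBET (log2 3.79 ± 0.63 with Ova and 4.80 ± 0.64 with IC, from 0.0331 to 0.448 CPM with Ova). Mast cell markers summed to 0.889 to 2.70 CPM, no B cell marker exceeded 7 reads and no T cell marker 11. GM-CSF cultures are known to hold macrophage-like cells too, and macrophage markers were present. Their sum ran from 1239 to 1844 CPM in DMSO Ova and from 846 to 1193 CPM in IBET Ova. With iBET 4 of the 7 macrophage markers passed the test as lower and 1 as higher with Ova, beside 28.9% and 27.7% of all genes tested, and 3 and 1 did with IC, beside 29% and 27.1%. Mature dendritic cell markers summed to 802 to 3248 CPM in DMSO Ova and to 391 to 1692 CPM in IBET Ova, and 1 of the 5, Fscn1, passed as lower in both comparisons. With the mouse as a block all 5 passed as lower with Ova and with IC, where 35.2% and 35.4% of all genes did. The part of these changes in the receptor values was not tested, and in RNA from bulk cultures fewer cells of a type and less RNA per cell cannot be told apart.

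Levels were compared between genes per kilobase of exon. Tlr4, Cd14 and Tlr2 were the most abundant in DMSO Ova, at 63.2 ± 14.7, 59.9 ± 21.8 and 50.2 ± 16.1 CPM per kb (SD, n = 5), and their ranges overlapped. Tlr13, a sensor of bacterial ribosomal RNA, followed at 30.5 ± 3.4 CPM per kb, below the whole range of Tlr2, and overlapped with Tlr8 at 22.1 ± 6.2 CPM per kb, which overlapped with Tlr7 at 17.4 ± 7.4 CPM per kb. Tlr9 and Tlr6 stood lower, at 4.07 ± 2.28 and 3.41 ± 0.75 CPM per kb, and Tlr3 and Tlr1 were the rarest, at 0.693 ± 0.185 and 0.659 ± 0.365 CPM per kb. Within each of these pairs the ranges overlapped, and between them they did not.

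In IBET Ova the order was no longer the same. Cd14 was the most abundant at 34.8 ± 8.8 CPM per kb, above the whole range of Tlr4 (15.1 ± 3.2 CPM per kb) and Tlr2 (14.9 ± 2.6 CPM per kb). Tlr13 had moved behind Tlr8 and Tlr7, at 1.31 ± 0.17 CPM per kb, though its range overlapped with that of Tlr7. The 9 receptors together summed to 192 ± 42 CPM per kb in DMSO Ova and 209.8 ± 51.2 in DMSO IC, and to 38.4 ± 7.2 in IBET Ova and 42.2 ± 9.6 in IBET IC, with no overlap between solvent and iBET libraries.

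**Figure D1:**
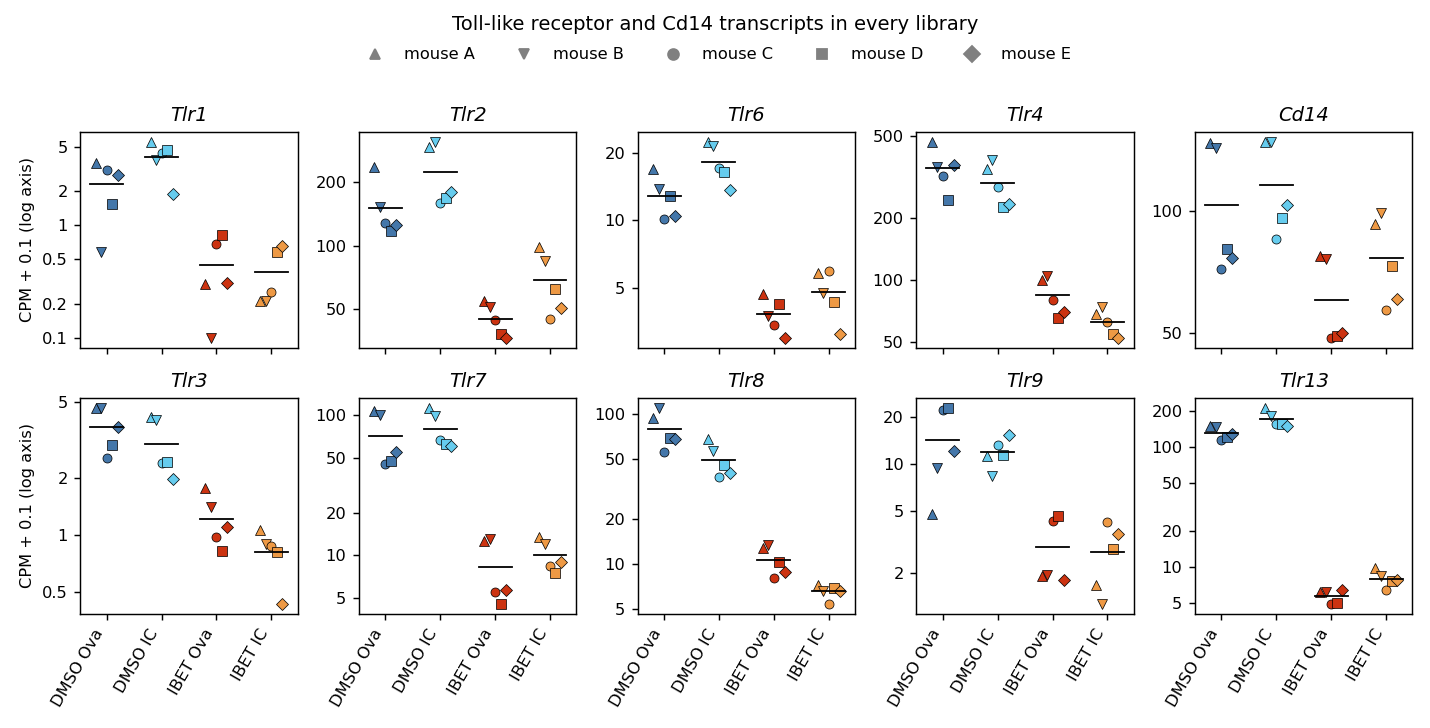
CPM plus 0.1 of the 10 genes in all 20 libraries, on a log axis that differs between panels; symbols mark the 5 mice, colours the 4 groups and horizontal lines the arithmetic group means. The iBET libraries sat below all solvent libraries of the same stimulus for every receptor except Tlr1 with Ova, while the Cd14 values overlapped.

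The first question was what iBET did to these transcripts, and all 10 were lower with it, with Ova and with IC alike, in all 5 mice. All 10 passed the test as lower with Ova, where 28.9% of all genes tested did so and 27.7% passed as higher. With IC all 10 passed again, against 29% of all genes as lower and 27.1% as higher. The median log2 fold change of the 10 was -2.20 with Ova and -2.22 with IC, while that of all genes lay at -0.00 and -0.01. Solvent and iBET libraries did not overlap for 8 of the 10 genes with Ova and for 9 with IC, beside 19.5% and 21.6% of all genes that were lower without overlap. The 4 surface receptors had a median of -1.92 with Ova (-2.69 to -1.75) and the 5 endosomal receptors a median of -2.91 (-4.53 to -1.68). With IC the medians were -2.09 (-3.85 to -1.70) and -2.94 (-4.41 to -1.98). The 2 classes overlapped under both stimuli, and Tlr3, an endosomal receptor, was the least reduced of the 9 with Ova.

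**Figure D2:**
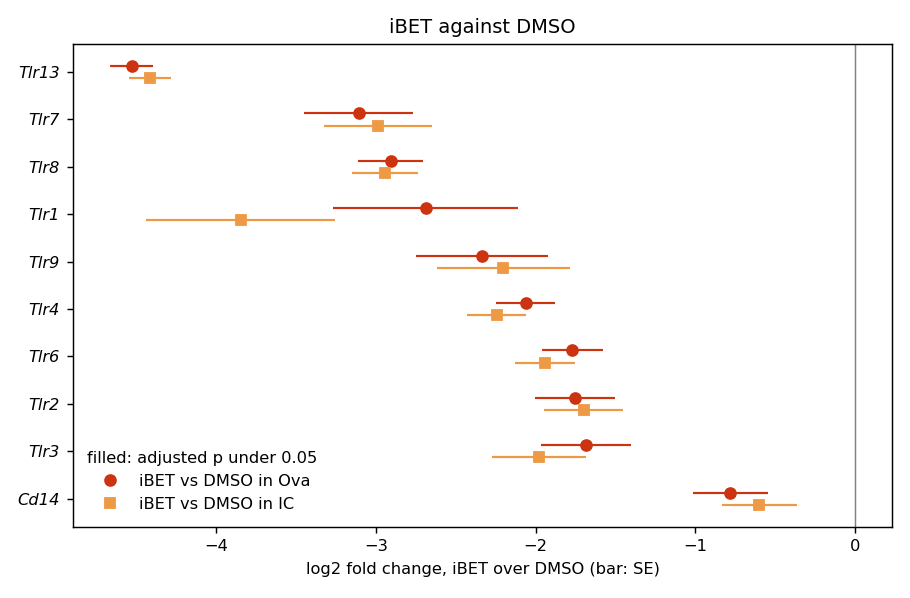
Log2 fold change of iBET over DMSO for the 10 genes with Ova (circles) and with IC (squares); bars are SE from the edgeR fit and filled symbols passed the test. Tlr13 lay farthest below 0, at -4.53 and -4.41, and Cd14 nearest to 0, at -0.78 and -0.60.

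TLR2 is the common partner of the lipopeptide receptors. Its transcript stood at 234.5, 152.7, 127.3, 117.3 and 124.4 CPM in DMSO Ova, for mice A to E in that order as in all such lists here, and at 54.5, 50.9, 44.4, 38.1 and 36.4 CPM in IBET Ova. With IC the values were 293.4, 310.2, 159.9, 167.5 and 180.0 CPM under solvent and 98.8, 84.6, 44.8, 62.4 and 50.8 CPM under iBET. The iBET libraries were the lower ones without overlap under both stimuli, and mice A and B were the highest in each group. The log2 fold change was -1.75 ± 0.25 (SE) with Ova (adjusted p = 6.06e-06, edgeR quasi-likelihood test) and -1.70 ± 0.25 with IC (adjusted p = 8.14e-06).

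Tlr6, which encodes the partner for diacylated lipopeptides, was lower still in abundance. It was read at 16.8, 13.7, 10.0, 12.7 and 10.3 CPM in DMSO Ova and at 4.61, 3.63, 3.33, 4.14 and 2.89 CPM in IBET Ova, and at 13.6 to 22.3 CPM in DMSO IC and 3.00 to 5.85 CPM in IBET IC. The groups did not overlap, and the fold changes were -1.77 ± 0.19 with Ova (adjusted p = 1.67e-07) and -1.94 ± 0.19 with IC (adjusted p = 3.44e-08). Tlr1, the partner for triacylated lipopeptides, rested on few reads, 8 to 91 per library in DMSO Ova and 0 to 16 in IBET Ova. Its values were 3.44, 0.474, 3.01, 1.44 and 2.67 CPM in DMSO Ova against 0.202, 0, 0.583, 0.721 and 0.209 CPM in IBET Ova. Mouse B was the lowest in both groups, and because of its solvent library the groups overlapped. With IC they did not, at 1.79 to 5.41 CPM in DMSO IC and 0.111 to 0.556 CPM in IBET IC. The fitted changes of Tlr1 were -2.69 ± 0.58 with Ova (adjusted p = 5.47e-04) and -3.85 ± 0.59 with IC (adjusted p = 1.45e-05).

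For the lipopolysaccharide receptor itself, Tlr4 values were 470.6, 356.1, 321.3, 245.3 and 362.1 CPM in DMSO Ova and 99.9, 104.5, 80.2, 65.4 and 69.8 CPM in IBET Ova. In the IC groups they were 348.2, 384.1, 284.4, 226.5 and 233.1 CPM, and 68.2, 74.0, 62.1, 54.6 and 52.2 CPM. Every iBET library lay below every solvent library, by 4.18-fold with Ova (log2 -2.06 ± 0.18, adjusted p = 1.16e-08) and 4.74-fold with IC (log2 -2.25 ± 0.19, adjusted p = 3.99e-09). Within single mice the difference ran from 3.40-fold to 5.18-fold with Ova.

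CD14 delivers lipopolysaccharide to TLR4 and MD-2, and its transcript moved the least of the 10. Cd14 lay on the minus strand at chr18:36725067-36726798 and stood at 147.1, 142.5, 71.7, 80.4 and 76.6 CPM in DMSO Ova and at 77.6, 76.3, 48.7, 49.1 and 49.9 CPM in IBET Ova. The groups overlapped, since mice A and B under iBET reached the level of mice C, D and E under solvent, yet each mouse was lower with iBET, by 1.47-fold to 1.90-fold. The log2 fold change was -0.78 ± 0.24 with Ova (adjusted p = 0.00825). With IC the values were 147.9, 148.0, 85.4, 95.8 and 103.1 CPM against 92.7, 98.8, 57.0, 73.1 and 60.6 CPM, a log2 fold change of -0.60 ± 0.24 (adjusted p = 0.0358). In fits without a mouse term, that last call was lost when any 1 mouse was left out (adjusted p between 0.0541 and 0.0931). The value stayed between -0.65 and -0.57. With the mouse as a block and all 5 mice, it was -0.60 ± 0.07 (adjusted p = 2.30e-07).

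Within each library Cd14 therefore gained on Tlr4. The ratio of Cd14 to Tlr4 in CPM was 0.212 to 0.40 in DMSO Ova and 0.607 to 0.777 in IBET Ova, and 0.300 to 0.442 in DMSO IC and 0.918 to 1.36 in IBET IC. On the log2 scale it differed by 1.31 ± 0.15 with Ova and by 1.63 ± 0.07 with IC (SE over 5 mice), in the same direction in all 5 mice. An exact two-sided permutation test of 5 against 5 libraries gave p = 0.00794 for each, the smallest it can give, which adjustment over the 6 ratio tests left at 0.00794. It shuffled the libraries freely, although both groups came from the same 5 mice. The SE, in contrast, came from differences within mice. These 6 tests, on 3 ratios that do not depend on library scaling, were chosen after the values had been seen. The adjustment does not cover that choice, so the p-values are no independent support for the differences.

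Among the endosomal receptors, Tlr3, the sensor of double-stranded RNA, was close to the limit of what these libraries could measure. It was read at 4.57, 4.56, 2.45, 2.87 and 3.59 CPM in DMSO Ova and at 1.66, 1.30, 0.875, 0.721 and 1.00 CPM in IBET Ova, which is 52 to 121 reads against 15 to 41. The IC libraries held 1.87 to 4.08 CPM under solvent and 0.334 to 0.962 CPM under iBET. The groups did not overlap under either stimulus. Log2 fold changes were -1.68 ± 0.28 with Ova (adjusted p = 4.17e-05) and -1.98 ± 0.30 with IC (adjusted p = 1.07e-05).

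The neighbouring genes Tlr7 and Tlr8 encode sensors of single-stranded RNA. Tlr7 stood at 106.9, 100.5, 44.8, 47.3 and 55.0 CPM in DMSO Ova and at 12.7, 13.1, 5.37, 4.41 and 5.52 CPM in IBET Ova. In IBET IC it was 13.5, 11.9, 8.33, 7.39 and 8.90 CPM, below all DMSO IC libraries (60.01 to 113.2 CPM). Mice A and B were the highest in every group. Tlr7 was 8.62-fold lower with Ova (log2 -3.11 ± 0.34, adjusted p = 2.15e-07) and 7.94-fold lower with IC (log2 -2.99 ± 0.34, adjusted p = 2.89e-07).

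Tlr8 was read at 93.5, 110.1, 55.3, 69.2 and 67.7 CPM in DMSO Ova and at 12.6, 13.3, 7.88, 10.2 and 8.66 CPM in IBET Ova. In the IC groups its values were 68.0, 56.4, 37.7, 45.3 and 40.1 CPM, and 7.14, 6.44, 5.28, 6.72 and 6.45 CPM. Every iBET library lay far below the lowest solvent library of its stimulus. The change was 7.50-fold with Ova (log2 -2.91 ± 0.20, adjusted p = 3.90e-10) and 7.70-fold with IC (log2 -2.94 ± 0.21, adjusted p = 4.26e-10).

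Tlr9, the sensor of unmethylated CpG DNA, differed from most of the others in which mice were high, as Tlr1 did under iBET. In DMSO Ova it stood at 4.68, 9.37, 22.0, 22.7 and 12.0 CPM, lowest in mice A and B, and in IBET Ova at 1.82, 1.84, 4.20, 4.55 and 1.72 CPM. The DMSO IC libraries held 11.1, 8.31, 13.1, 11.4 and 15.2 CPM, and the IBET IC libraries 1.59, 1.17, 4.14, 2.77 and 3.45 CPM. Solvent and iBET libraries did not overlap, although mouse A under solvent and mouse D under iBET were close with Ova. The log2 fold change was -2.34 ± 0.41 with Ova (adjusted p = 7.32e-05) and -2.20 ± 0.41 with IC (adjusted p = 1.47e-04).

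Tlr13 showed the steepest difference of the 10 and the smallest standard error. Its transcript stood at 147.6, 145.1, 114.7, 120.3 and 128.5 CPM in DMSO Ova and at 6.06, 6.13, 4.84, 4.91 and 6.36 CPM in IBET Ova. With IC the values were 211.3, 182.1, 153.5, 153.6 and 149.0 CPM under solvent and 9.81, 8.29, 6.31, 7.49 and 7.73 CPM under iBET. All iBET libraries were far below all solvent libraries, by 19.9-fold to 24.0-fold within single mice with Ova. The fitted change was 23.1-fold (log2 -4.53 ± 0.14, adjusted p = 6.61e-15) with Ova and 21.3-fold (log2 -4.41 ± 0.13, adjusted p = 4.13e-15) with IC. Ordered from the most reduced, it took place 23 of 12465 genes with Ova and place 20 with IC.

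Relative to Tlr8, Tlr13 fell within the library as well. The ratio of Tlr13 to Tlr8 in CPM was 1.32 to 2.07 in DMSO Ova and 0.461 to 0.734 in IBET Ova, and 3.11 to 4.07 in DMSO IC and 1.11 to 1.37 in IBET IC. The log2 difference was -1.64 ± 0.09 with Ova and -1.50 ± 0.11 with IC (SE over 5 mice), lower in 5 of 5 mice each time. The unpaired exact two-sided permutation test gave p = 0.00794 for each, 0.00794 adjusted over the 6 ratio tests, with the same limits as above. The share of Tlr13 in the summed receptor CPM per kb was 16.2 ± 1.8% in DMSO Ova and 3.50 ± 0.70% in IBET Ova. Tlr2 and Tlr4 together made up most of the remainder, at 38.9 ± 1.4% and 39.3 ± 1.7% in IBET Ova.

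**Figure D3:**
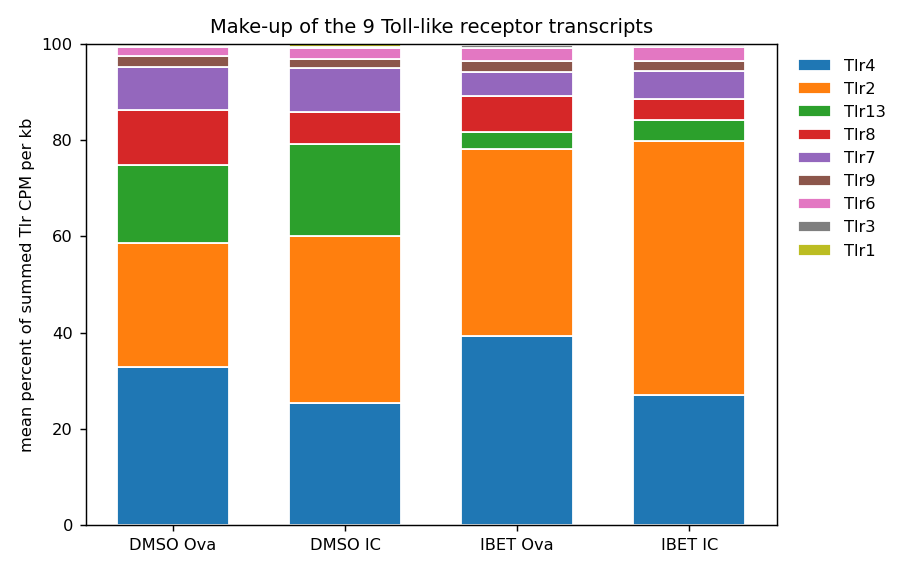
Mean percent that each of the 9 receptor transcripts held of their summed CPM per kb of exon, in the 4 groups (mean over 5 libraries each). Tlr13 took 16.2% in DMSO Ova, 19.2% in DMSO IC, 3.50% in IBET Ova and 4.43% in IBET IC, and Tlr2 rose to 52.7% in IBET IC.

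The second question was whether the immune complex itself altered these transcripts. Both comparisons of IC with Ova share their libraries with the iBET comparisons. Under solvent 3 of the 10 genes passed the test. Tlr13 rose by 0.37 ± 0.11 on the log2 scale (adjusted p = 0.0248) and Tlr6 by 0.51 ± 0.18 (adjusted p = 0.0481), against 9.59% of all genes that passed as higher. Tlr8 fell, with a log2 fold change of -0.68 ± 0.18 (adjusted p = 0.0138), against 10.7% of all genes that passed as lower. Only for Tlr13 did the DMSO Ova and DMSO IC libraries not overlap, which was so for 5.97% of all genes as higher.

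Under iBET 2 genes passed, and they were 2 of those 3. Tlr13 rose by 0.49 ± 0.13 on the log2 scale (adjusted p = 0.0191), against 5.19% of all genes as higher, and Tlr8 changed by -0.71 ± 0.21 (adjusted p = 0.0276), against 6.63% as lower. Tlr8 libraries of IBET IC lay wholly below those of IBET Ova, as 5.46% of all genes did, and those of Tlr13 overlapped because mouse C with IC was at 6.31 CPM. Under solvent the call of Tlr13 was lost without mouse B, C, D or E, that of Tlr8 without B, D or E and that of Tlr6 without B, C or D. Under iBET that of Tlr8 was lost without A, B, D or E and that of Tlr13 without B or D. The adjusted p over the mice left out ran from 0.0132 to 0.0624 for Tlr8 and from 0.0329 to 0.0793 for Tlr13 under solvent, and from 0.0417 to 0.0988 and from 0.0364 to 0.0884 under iBET. For Tlr6 it ran from 0.0372 to 0.172 under solvent. Tlr2 passed under solvent when mouse A was left out (adjusted p = 0.0429).

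Each mouse gave cells to all groups. In a paired fit, where the mouse was a block, 6 genes passed under solvent, 4 higher and 2 lower, where 18.3% of all genes passed as higher and 19.8% as lower. Under iBET 7 passed, 4 higher and 3 lower, beside 14.2% and 14.7% of all genes. Higher with IC in the paired fit under both treatments were Tlr13 and Tlr2 (adjusted p = 4.76e-04 and 7.48e-04 for Tlr2). So was Cd14 (adjusted p = 0.0263 and 9.12e-04), though its unpaired value under solvent was only 0.02 in mice A and B. Tlr6 passed under solvent alone (adjusted p = 3.84e-04) and Tlr7 under iBET alone (adjusted p = 0.0395), but the interaction test called neither gene. Lower with IC under both treatments were Tlr8 (adjusted p = 3.85e-06 and 5.19e-05) and Tlr4 (adjusted p = 0.0207 and 0.00149), and Tlr3 passed under iBET (adjusted p = 0.0292). The unblocked log2 fold changes of Tlr2 were 0.55 ± 0.24 and 0.61 ± 0.24, and those of Tlr4 -0.25 ± 0.18 and -0.43 ± 0.18.

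**Figure D4:**
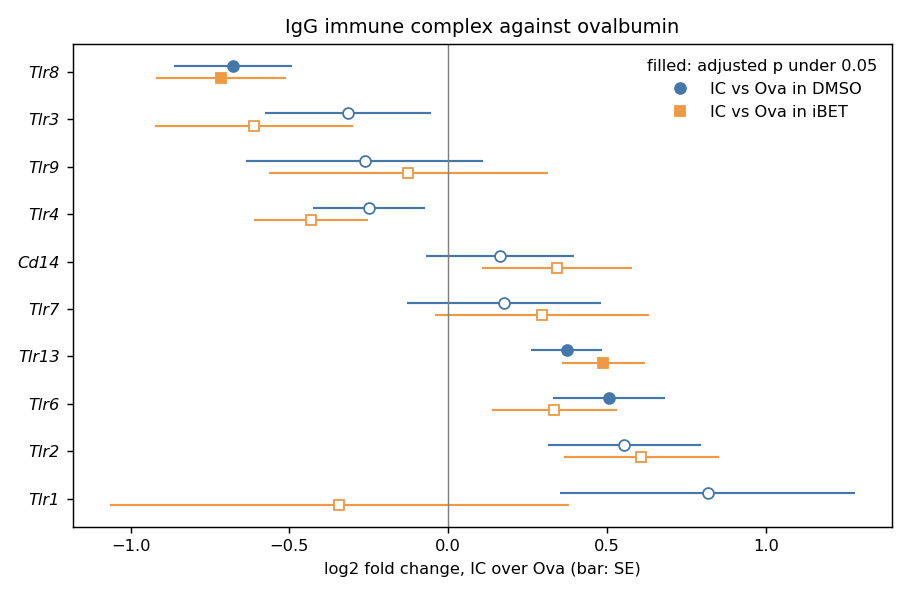
Log2 fold change of IC over Ova for the 10 genes under solvent (circles) and under iBET (squares); bars are SE from the edgeR fit without the mouse term and filled symbols passed the test. Tlr8 lay at -0.68 and -0.71, Tlr13 at 0.37 and 0.49, and only these 2 were filled under both treatments.

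Tlr8 thus fell with IC relative to Tlr7, its neighbour on the X chromosome. The unblocked values of Tlr7 itself, 0.17 ± 0.30 under solvent and 0.29 ± 0.34 under iBET, did not pass. The ratio of Tlr8 to Tlr7 in CPM was 0.875, 1.10, 1.23, 1.46 and 1.23 in DMSO Ova and 0.601, 0.571, 0.570, 0.728 and 0.668 in DMSO IC. In IBET Ova it was 0.994, 1.02, 1.47, 2.32 and 1.57, and in IBET IC 0.527, 0.540, 0.634, 0.910 and 0.725. The IC libraries were below all Ova libraries under both treatments. The log2 difference was -0.90 ± 0.10 under solvent and -1.10 ± 0.08 under iBET, in 5 of 5 mice. In the A and B pair of mice it was -0.74 and -0.91. In the other mice it was -0.999 and -1.22. The unpaired exact two-sided permutation test gave p = 0.00794 for each, 0.00794 adjusted over the 6 ratio tests, with the same limits as above.

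Whether the effect of IC differed between solvent and iBET was tested by the interaction term. None of the 10 genes passed it by edgeR, with or without the mouse term, or by DESeq2, and none had an unadjusted p under 0.05 in any of those 3 fits (lowest 0.127). Of all 12465 genes, 5 (0.0401%) passed by edgeR without the mouse term, 102 with it and 24 by DESeq2. The interaction of Tlr1 was -1.16 ± 0.86 and that of Cd14 0.18 ± 0.33 on the log2 scale, the lowest and the highest of the 10.

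Mice A and B differed from mice C, D and E in several of these transcripts. In DMSO Ova the 2 sets averaged 193.6 and 123.0 CPM for Tlr2, and Tlr7 (100.5 to 106.9 against 44.8 to 55.0 CPM), Tlr8 (93.5 to 110.1 against 55.3 to 69.2 CPM) and Cd14 (142.5 to 147.1 against 71.7 to 80.4 CPM) were higher in mice A and B without overlap. Tlr9 went the other way, as did the scarce Toll genes Tlr11 (on average 0.483 against 1.42 CPM) and Tlr12 (1.22 against 2.90 CPM). Over the same libraries the mature dendritic cell markers summed to 802 and 939 CPM in mice A and B and to 2723 to 3248 CPM in mice C, D and E, and the macrophage markers to 1698 and 1844 against 1239 to 1478 CPM. Their part in the receptor values was not tested. Within either set all 10 genes passed the test as lower with iBET under both stimuli. The IC effects were less even. Tlr7 with IC under iBET was at -0.00 in mice A and B and at 0.68 in mice C, D and E (adjusted p = 0.00377). In the same order of sets, Tlr9 with IC under solvent was at 0.48 and -0.50, neither of which passed. Under solvent Tlr7 was at 0.02 and 0.37 with IC, and Cd14 at 0.02 and 0.33. For both genes only the value of mice C, D and E passed (adjusted p = 0.0113 and 0.0172).

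Proteins that carry or serve the receptors were followed as a list of 10 genes, of which 8 had enough reads. With iBET 3 were lower and 1 was higher under each stimulus, beside 28.9% of all genes lower and 27.7% higher with Ova and 29% and 27.1% with IC. Cd180, the receptor-like partner of MD-1 that restrains TLR4, fell with a log2 fold change of -3.86 ± 0.19 with Ova and -3.68 with IC (from 12.7 ± 2.4 to 0.85 ± 0.27 CPM with Ova). Ly96, which encodes MD-2, was lower by -1.11 ± 0.14 and -1.20. Hsp90b1, the chaperone gp96 on which receptor folding depends, was higher by 0.38 ± 0.08 and 0.35. Unc93b1 stood at 523 ± 72 CPM in DMSO Ova and 511 ± 51 CPM in IBET Ova, with log2 values of -0.03 ± 0.10 and 0.05 that did not pass. Cnpy3, a folding cofactor, passed with Ova (-0.24 ± 0.05) and the scavenger receptor Cd36 with IC (-0.52), while Ly86 (-0.26 and -0.08) and Cnpy4 (-0.31 and -0.03) passed under neither. In the paired fit with the mouse as a block these last 2 genes passed with Ova (adjusted p = 0.0234 and 0.0108). That made 5 lower, beside 35.2% of all genes in that fit. The list's median was -0.25 with Ova and -0.09 with IC, against -2.20 and -2.22 for the 10 genes.

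Of 6 adaptor genes 5 had enough reads and 4 of them were lower with iBET under each stimulus, beside 28.9% of all genes with Ova and 29% with IC. Ticam2, which encodes the bridging adaptor TRAM between TLR4 and TRIF, went from 73.2 ± 7.3 to 19.9 ± 2.8 CPM with Ova (log2 -1.88 ± 0.11) and by -2.12 with IC. Pik3ap1 (BCAP) changed by -1.16 ± 0.09 and -1.41, and Tirap, the sorting adaptor of TLR2 and TLR4, by -0.71 ± 0.08 and -0.69. Myd88 was lower by a small amount, from 77.7 ± 11.0 to 62.5 ± 4.5 CPM with Ova (log2 -0.32 ± 0.09, adjusted p = 0.0041) and -0.24 with IC. Ticam1 did not pass, at -0.00 ± 0.15 and 0.10.

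**Figure D5:**
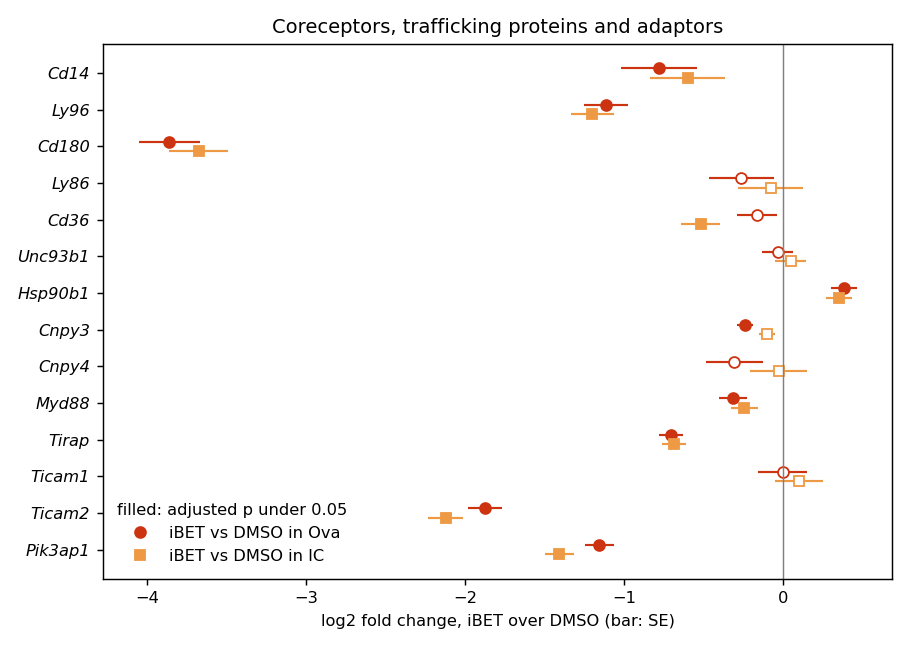
Log2 fold change of iBET over DMSO for Cd14 and the tested coreceptor, trafficking and adaptor genes, with Ova (circles) and IC (squares); bars are SE and filled symbols passed the test. Cd180 and Ticam2 lay farthest below 0, Unc93b1 and Ticam1 next to 0, and Hsp90b1 above it.

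The counts of the other lists with iBET and Ova stand beside 28.9% of all genes lower and 27.7% higher. Of 19 kinases and ubiquitin ligases of the pathway 9 were lower and 4 higher with iBET under Ova, with values between -0.78 (Tab1) and 0.88 (Peli1), and Ikbke at -0.77. Among 12 inhibitors 5 were lower and 2 higher. With the mouse as a block 7 were lower and 3 higher, beside 35.2% and 33.5% of all genes. Tnip3 (-2.95 ± 0.28), Sigirr (-2.15 ± 0.33) and Tnfaip3, the deubiquitinase A20 (-1.75 ± 0.21), changed the most. Of 11 sensors outside the Toll family 9 were lower and 1 was higher. The largest were Ifi204 (-1.95 ± 0.23), Tmem173, the STING adaptor of cytosolic DNA sensing (-1.75 ± 0.13), and Clec7a, the beta-glucan receptor Dectin-1 (-1.73 ± 0.15). Of 5 endosomal proteases that cut the nucleic acid receptors 1, Ctsk, was lower (-1.28 ± 0.25), and with the mouse as a block 2 were lower and 2 higher, beside 35.2% and 33.5% of all genes. Under solvent, where 9.59% of all genes were higher with IC and 10.7% lower, IC raised 5 of the 12 inhibitors and lowered none, led by Tnfaip3 (0.74 ± 0.20), Tnip1 (0.66 ± 0.10) and Nfkbia (0.56 ± 0.18). It raised 6 and lowered 3 of the kinases and ligases, with Tbk1 (0.47 ± 0.08) and Traf3 (0.42 ± 0.07) the farthest up. Among the 11 sensors it lowered Ddx58 (-0.48 ± 0.12) and Dhx58 (-0.47 ± 0.14). The paired fit called 5 of these sensors lower and 2 higher, beside 19.8% and 18.3% of all genes.

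The remaining mouse Toll genes were scarce. Tlr11 and Tlr12, sensors of protozoan profilin, had enough reads to be tested and Tlr5 did not. In DMSO Ova they stood at 1.04 ± 0.56 and 2.23 ± 1.41 CPM, and in IBET Ova at 0.065 ± 0.044 and 0.085 ± 0.086 CPM. Both passed as lower with iBET, Tlr11 with fitted log2 changes of -3.89 ± 0.60 and -2.50 ± 0.62 and Tlr12 with -4.63 ± 0.61 and -4.47 ± 0.65, for Ova and IC in that order.

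Across the 20 libraries, which share the 4 groups and the 5 mice, the genes whose log2 CPM followed a member most closely were listed by Pearson's r. Tlr13 was closest to Lat2, Cd300lb and Rab7b (r = 0.993, 0.993 and 0.992). Tlr4 was followed by Aqp9, the IgG receptor gene Fcgr1, which is also 1 of the macrophage markers, and P2ry13 (0.988, 0.984 and 0.984), and Tlr7 by Cd84, Nr1h3 and March1 (0.983, 0.983 and 0.982). For Tlr2 they were Dram1, Il10rb and Cdc16 (0.981, 0.977 and 0.976), for Tlr9 Bcl9l, Tmod2 and Scmh1 (0.978, 0.969 and 0.969) and for Tlr6 Itpripl2, Hdgf and Cd28 (0.977, 0.976 and 0.976). The closest genes were less close for Tlr3 (Milr1, Rhbdd1 and Rab32, 0.967 to 0.961), Cd14 (Ppt2, Lmna and Slc37a2, 0.957 to 0.951) and Tlr1 (Kif1a, Wnt6 and Lace1, 0.933 to 0.920). After each group's mean was removed, Tlr2 still moved with Cd14 over the libraries (r = 0.887) and with Tlr7 (r = 0.778), and against Tlr9 (r = -0.74). This was not particular to Tlr2, since Tlr7 and Tlr8 moved with Cd14 as well (r = 0.904 and 0.878). Tlr9 went against every member except Tlr1 (r = 0.320). These values still hold the differences between the 5 mice, among them that of mice A and B from the rest.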

How the data were processed

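RNA from 20 libraries of cultured cells was sequenced by the authors, who deposited 1 table of raw counts per gene. Per the labels and the methods, CASAVA, FastQC, Trim Galore, HISAT2 against mm10 and featureCounts were used; versions, annotation, strand setting and treatment of multimapping reads are not given in the sources used here. Total counts ran from 16447491 to 29245150, and low counts limit Tlr1 and Tlr3 in particular. The authors' own tests used DESeq2 with sva.

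From the deposited counts, genes kept by filterByExpr (12465) were scaled by TMM and fitted with edgeR 4.0.16 (R 4.3.3) in 1 model of the 4 groups over all 20 libraries. The quasi-likelihood test was adjusted by Benjamini-Hochberg over all genes tested, at 0.05. CPM used TMM library sizes, and CPM per kb the exon union length. The mouse letter paired the libraries, since each mouse gave 1 library to every group; deviations from group means correlated between libraries of 1 mouse by 0.307 at the lowest of 30 pairs (mean 0.524; different mice -0.13). Alternatives were the mouse as a block, DESeq2 1.42.0 (size factors; Wald test), library size alone, no filter, 3 surrogate variables (sva 3.50.0), only the libraries compared, a log2 fold change of at least 1, each mouse left out and each set of mice alone. The fitting code was tested on simulated data.

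Named were the 10 genes, the other Toll genes, all tested coreceptor, trafficking and adaptor genes, up to 3 genes of each other list with the largest change past the test, and the 3 genes most alike, which are not reported here for Tlr8. Single marker genes named beside a count were chosen after their values were seen. The members and lists were chosen with earlier results of these data known. Promoters came from RefSeq (GRCm38.p6), coordinates from the GRCm38 annotation.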

Additional observations from a re-analysis of the deposited data

How the results depend on the processing

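With Ova the count of genes lower with iBET was 10 under every alternative run except a log2 fold change of at least 1, where it was 9. With IC, 9 were called under that requirement and, through Cd14, 9 without each mouse in turn. Paired by mouse as a replicate block, the count for IC against Ova went from 3 to 6 under solvent and from 2 to 7 under iBET, and over all genes from 2531 to 4755 and from 1474 to 3601 (interaction 5 to 102); the block changed no call of the 10 genes for iBET or the interaction. Under solvent the count of 3 became 1 with library size only, 6 with surrogate variables, 0 with only the libraries compared, 1 with mice A, B only, 6 with mice C, D, E only and 0 at a log2 fold change of at least 1, and 0 to 4 with 1 mouse left out. Over all genes the 2531 called became 3175, 4062, 1766, 500 and 3408 in the first 5 of these. With 1 mouse left out they were 1180 to 2477. Under iBET the count of 2 became 7, 1, 5 and 0 with surrogate variables, mice A, B only, mice C, D, E only and that fold requirement, and 0 to 2 with 1 mouse left out. Over all genes the 1474 called became 3102, 296 and 1188 in the first 3 of these. With 1 mouse left out they were 643 to 1177. Library size only moved the median of all genes for IC against Ova to -0.13 and -0.12.

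Direction reversed for values that had not passed the test. IC against Ova turned to 0.26 (surrogate variables) and 0.48 (mice A, B) for Tlr9 under solvent, and under iBET to -0.00300 for Tlr7 (mice A, B); with 1 mouse left out, Tlr1 ran from -0.85 to 0.0258 and Tlr9 from -0.38 to 0.0998. With iBET and IC, Ly86 was 0.137, Cnpy3 0.0138 and Cnpy4 0.0281 in mice A, B, Cnpy4 ran from -0.119 to 0.044 with 1 mouse left out, and Unc93b1 was -0.00153 with library size only and -0.0128 with surrogate variables. With iBET and Ova, Unc93b1 was 0.0845 in mice C, D, E and ran from -0.0727 to 0.0819 with 1 mouse left out. Ticam1 there was 0.0152 (block), 0.0243 (no filter) and 0.0243 (surrogate variables), 0.00325 (DESeq2 size factors), 0.00364 (DESeq2 Wald test), 0.00312 (only the libraries compared), 0.256 (mice A, B) and -0.0793 to 0.0442 with 1 mouse left out. The cause was not tested. The 3 ratios, with each mouse left out as an alternative chosen after seeing the data, kept their direction and their call in the unpaired permutation test. That outcome was fixed beforehand. With all mice the groups compared did not overlap in any of the 3 ratios, and leaving out 1 mouse could not make them overlap. It therefore says nothing about how firm the ratio differences are.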
